A study of Mus musculus with 48 samples.

Results

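The haemoglobin and erythroid genes examined here are 5 mouse genes: the beta globin genes Hbb-bs and Hbb-bt, the alpha globin genes Hba-a1 and Hba-a2, and Alas2. They were taken as the rows of the count table whose Ensembl identifiers carry these symbols, 5 of 38293 genes, and all 5 were found. The table held 48 RNA-seq libraries in 16 groups of 3, from the dorsal vagal complex of the hindbrain (DVC) and the mediobasal hypothalamus (MBH) of male C57/Bl6 mice aged 9 weeks and fasted for 6 h. Each mouse had received 1 intraperitoneal injection at 10 µL/g of AC3174 (a GLP-1 receptor agonist, 1 µg/kg), of AC170222 (a CCK receptor agonist, 2.5 µg/kg), of a combination of the drugs, or of saline. The labels write the name of the CCK agonist in 2 ways, give more than 1 dose for it, so that its dose is uncertain, and do not give the doses of the combination. From each tissue sample an aliquot of the lysate gave the input library. The rest was incubated with an antibody to phosphorylated ribosomal protein S6 (pS6), and the RNA bound to those ribosomes gave the immunoprecipitate (IP) library. All groups share strain, sex, age and fast. The sources used here do not say how many mice make up a sample, whether they were perfused, or how long after injection they were dissected, so p-values measure the spread between these samples, which may be partly technical.

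Adult mouse haemoglobin is a tetramer of alpha chains, from the Hba genes, and beta chains, from the Hbb genes, each holding a haem group that binds oxygen. Alas2 encodes the erythroid form of 5-aminolevulinate synthase, the first enzyme of haem synthesis, whereas Alas1 serves other cells. Mature red cells have no nucleus, and young ones (reticulocytes) still carry ribosomes and globin mRNA, so these genes mark blood in the vessels of a dissected tissue. Globin mRNA has also been reported in some neurons of the rodent midbrain. S6 becomes phosphorylated in active neurons and in other cells whose mTOR pathway is on, which is why an IP for it is used to read the RNA of active cells.

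On GRCm38 with GENCODE M21 gene models, Hba-a1 lies at chr11:32283511-32284465 and Hba-a2 at chr11:32296489-32297298, both on the plus strand. Hbb-bs lies at chr7:103826534-103828096 and Hbb-bt at chr7:103812524-103813996, both on the minus strand. Alas2 lies at chrX:150547375-150570638 on the plus strand and overlaps Apex2 and Mir3620 on the other strand. The library kits keep no strand, so reads from the overlap with Apex2 could not be told from those of Alas2.

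The members of each globin pair are nearly identical, which limits how well their counts can be told apart. Their coding sequences differ by 1 base of 429 between Hba-a1 and Hba-a2 (C381T, read from Hba-a1 to Hba-a2) and by 1 base of 444 between Hbb-bs and Hbb-bt (C417T, read from Hbb-bs to Hbb-bt), with positions counted from the first coding base. The 41 coding bases around each difference, from the GENCODE transcripts, are shown with the differing base in capitals, to let a reader see how little separates the paired genes.
Hba-a1: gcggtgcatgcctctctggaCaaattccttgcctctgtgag
Hba-a2: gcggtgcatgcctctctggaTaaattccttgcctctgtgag
Hbb-bs: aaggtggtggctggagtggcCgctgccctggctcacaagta
Hbb-bt: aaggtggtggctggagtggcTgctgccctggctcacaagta
Of the stretches of 50 bases in the longest transcript, 67.5% of those of Hba-a1 also occur in Hba-a2, and 65.8% of those of Hbb-bs also occur in Hbb-bt. The sources used here do not say how reads that fit both genes of a pair were counted. The split within each pair is therefore uncertain. The sum of a pair does not depend on how shared reads were split, but it is too low if they were left out. That loss need not be equal for alpha and beta, so levels, shares and alpha to beta ratios below carry this limit.

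The promoters are shown to describe the genes. Whether their sequence bears on how the levels varied between libraries was not tested. The 120 bases before each RefSeq start on GRCm38.p6 are given for Hbb-bs (chr7:103827929-103828048, minus strand), Hba-a1 (chr11:32283552-32283671, plus strand) and Alas2 (chrX:150547297-150547416, plus strand). Capitals mark matches on either strand to the CCAAT box, the CACCC box, the GATAA core of a GATA site and the ATATAA box, motifs whose letters were picked with these sequences in view.
Hbb-bs: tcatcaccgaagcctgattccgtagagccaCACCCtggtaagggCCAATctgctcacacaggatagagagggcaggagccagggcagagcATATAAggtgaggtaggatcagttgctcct
Hba-a1: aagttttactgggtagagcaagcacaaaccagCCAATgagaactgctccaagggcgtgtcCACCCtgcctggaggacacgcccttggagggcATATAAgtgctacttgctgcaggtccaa
Alas2: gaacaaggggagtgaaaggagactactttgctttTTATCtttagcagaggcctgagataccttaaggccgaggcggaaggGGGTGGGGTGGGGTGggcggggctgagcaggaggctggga
All 4 globin promoters held CCAAT and ATATAA, which occur in 21.3% and 4.5% of 32851 mouse promoters of the same length. CACCC stood in the promoters of all 5 genes and in 31.7% of the 32851. The GATA core, which erythroid GATA factors bind, stood in the Alas2 window and in 10.5% of the 32851. A match describes the letters and does not show binding.

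Total counts of the DVC libraries ran from 102116189 to 191252522 for IP and from 29492622 to 95079227 for input. Those of the MBH ran from 21782798 to 73940674 for IP and from 36542586 to 80084056 for input. The number of genes with a count was mostly lower in the IP libraries (9925 to 16796 in DVC, 6285 to 15913 in MBH) than in the input libraries (16569 to 18200 in DVC, 12853 to 18657 in MBH). Libraries with fewer than 12000 such genes numbered 1 among DVC IP and 5 among MBH IP. The region labels fitted their markers: Hoxb5, a hindbrain patterning gene, averaged 162.0 CPM in DVC input and was at 0 in all MBH input libraries, while Nkx2-1, a hypothalamic transcription factor, was lower in DVC input than in MBH input (log2 −10.8).

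Levels are CPM, counts scaled to the size of each library, on 1 scale across the 48 libraries, and levels of different genes are compared per kilobase of exon. Hbb-bs was the most abundant of the 5 per kilobase in each region and kind of RNA, with IP and input at 184.0 ± 132.3 and 64.53 ± 41.93 CPM per kb in the DVC and at 85.01 ± 51.19 and 32.53 ± 24.27 CPM per kb in the MBH (SD, n = 12 each). Hba-a2 and Hba-a1 followed with 87.27 ± 60.22 and 78.53 ± 58.8 CPM per kb in DVC IP. Hbb-bt reached 43.55 ± 33.62 and Alas2 4.949 ± 5.229 CPM per kb there. The order of the 5 genes was the same in the other 3 sets. Neighbours in it differed by less than the larger of their SDs, except Hbb-bt and Alas2 in all 4 sets and Hba-a1 and Hbb-bt in MBH IP.
The 4 globin genes together took between 0.00206% and 0.0717% of the counts of a library. Of the 192 globin values, 1 was 0, that of Hbb-bt in AC3174 replicate 3 of MBH IP, and the others had between 112 and 75992 counts. In these bulk samples fewer cells of a type and less RNA per cell cannot be told apart.

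In the fit without pairing, both beta globin genes were called higher in the pS6 IP than in the input of the DVC. With IP and input paired by sample, Hbb-bs stayed called and Hbb-bt did not. Hbb-bs ran from 41.38 to 423.4 CPM with a median of 105.6 in the 12 IP libraries, against 16.78 to 122.8 CPM with a median of 38.94 in the 12 input libraries. The ranges overlapped, and the IP value was above the input value of the same sample in 10 of 12 samples. The log2 fold change of Hbb-bs was 1.39 ± 0.37 (SE; edgeR quasi-likelihood test, adjusted p = 0.0123), a 2.61-fold difference.
Hbb-bt had 5.366 to 84.41 CPM with a median of 26.05 in IP, against 3.845 to 28.37 CPM with a median of 8.019 in input. Here too the IP value was the higher in 10 of 12 samples. Its log2 fold change was 1.42 ± 0.48 (edgeR adjusted p = 0.0412).
Hba-a1 had 14.47 to 184.0 CPM with a median of 56.6 in IP, against 10.03 to 82.42 CPM with a median of 20.77 in input. Hba-a2 had 14.01 to 137.0 CPM with a median of 54.52 in IP, against 10.62 to 57.94 CPM with a median of 23.91 in input. Both alpha genes were higher in IP in 10 of 12 samples, and neither passed the threshold of 0.05 after adjustment. Their log2 estimates were 1.08 ± 0.43 for Hba-a1 (edgeR adjusted p = 0.086) and 0.93 ± 0.37 for Hba-a2 (edgeR adjusted p = 0.0807).

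In the DVC, 2 of the 5 genes were therefore called higher in IP and 0 lower, where 6.8% of the 18465 genes tested were called higher and 13.6% lower. The median log2 fold change was 1.15 over the 5 genes, against −0.37 over all genes tested. With the sample number as a block, which pairs each IP with the input of its own lysate, Hbb-bs stayed past the threshold (log2 1.42, adjusted p = 0.0231) and Hbb-bt did not (log2 1.29, adjusted p = 0.1). The block took the genes called in the whole table to 1401, against 3776 without it. Leaving out 1 sample at a time moved the adjusted p of Hbb-bs between 0.00205 and 0.0338 and that of Hbb-bt between 0.0164 and 0.1. Over the whole table the genes called then ran from 2759 to 4213. Without AC3174 replicate 1, whose IP held less globin than its input, all 4 globin genes passed. The log2 fold changes were then 1.78 for Hbb-bs, 1.81 for Hbb-bt, 1.56 for Hba-a1 and 1.2 for Hba-a2. That sample is singled out by the same globin values, so its removal favours these calls and adds no support. Leaving out some other samples cost Hbb-bt its call.

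**Figure D1:**
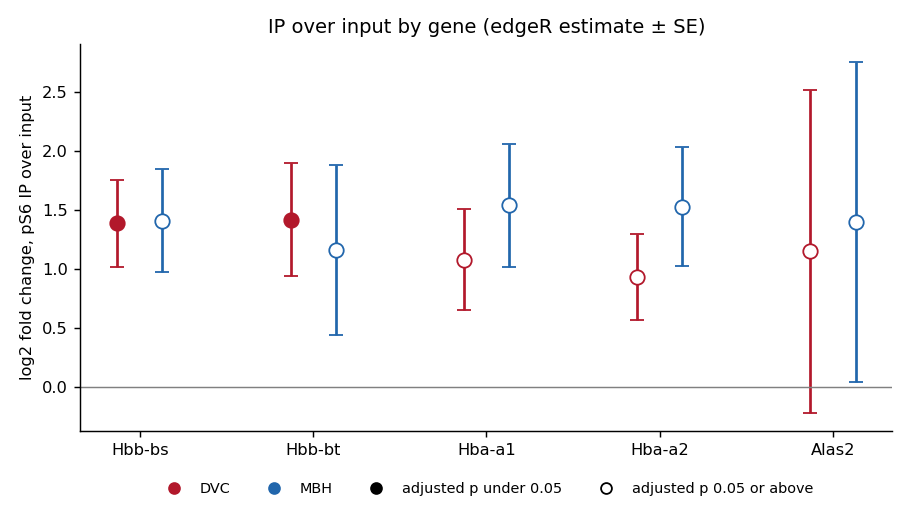
Log2 fold change of the pS6 IP over the input for each gene, with the DVC in red left of the MBH in blue. Points are edgeR estimates without pairing over 12 IP and 12 input libraries per region, and whiskers are standard errors. Filled points are the 2 with an adjusted p under 0.05 in that fit, Hbb-bs and Hbb-bt in the DVC. Every estimate lies above 0.

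In the MBH the estimates were as large and more scattered. Hbb-bs had 14.05 to 151.0 CPM with a median of 61.26 in IP, against 8.225 to 67.86 CPM with a median of 15.05 in input. Its IP value was above the input value in 9 of 12 samples, and the ranges overlapped. The log2 fold change was 1.41 ± 0.44 (edgeR adjusted p = 0.151).
The other estimates were 1.54 ± 0.52 for Hba-a1 (edgeR adjusted p = 0.188), 1.53 ± 0.50 for Hba-a2 (edgeR adjusted p = 0.176) and 1.16 ± 0.72 for Hbb-bt (edgeR adjusted p = 0.691). By edgeR 0 of the 5 genes passed, where 0.16% of 17461 genes were called higher and 0.292% lower. At an unadjusted p under 0.05 there were 3 of the 5, where 11.3% of all genes stood. DESeq2 called the 3 genes Hbb-bs, Hba-a1 and Hba-a2 higher in IP (adjusted p = 0.00089, 0.00184 and 0.00174), where it called 1846 genes in all.
The estimates were smaller without the 5 MBH IP libraries with fewer than 12000 genes. The log2 fold changes of the 4 globin genes then ran from 0.70 for Hba-a2 to 0.86 for Hbb-bt, with 0.85 for Hbb-bs (edgeR adjusted p = 0.415).
Whether the IP-to-input change differed by region was tested as an interaction. It was 0.01 ± 0.55 for Hbb-bs, 0.30 ± 0.82 for Hbb-bt, −0.43 ± 0.65 for Hba-a1 and −0.55 ± 0.60 for Hba-a2 on the log2 scale, DVC minus MBH. For each of the 4 the edgeR adjusted p was 1.0, and the sign turned for all 4 in at least 1 alternative setting, so no direction is read from them. Without the libraries under 12000 genes it was 0.595 for Hbb-bs, 0.681 for Hbb-bt, 0.351 for Hba-a1 and 0.26 for Hba-a2. For Alas2 it was −0.19 ± 1.94 with all libraries (edgeR adjusted p = 1.0). Of the 19416 genes tested, 4.39% were called, and 0 of the 5.

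Sample by sample, the summed CPM of the 4 globin genes was higher in IP than in input in 11 of 12 DVC samples and 10 of 12 MBH samples. The exception in the DVC was AC3174 replicate 1, with 185.7 CPM in IP and 260.3 CPM in input, the highest input value of the region. In the MBH the exceptions were AC170222 replicate 1, with 49.59 CPM in IP and 92.72 CPM in input, and AC3174 replicate 1, with 69.31 CPM in IP and 118.5 CPM in input. The largest ratio of IP to input in the DVC was in AC170222 replicate 2, with 508.6 CPM in IP and 90.19 CPM in input. In the MBH it was in the same-numbered AC170222 sample, with 376.3 CPM in IP and 38.04 CPM in input, a library of fewer than 12000 genes.
The input and IP levels of a sample were not correlated at an adjusted p under 0.05 in either region. Pearson's r of log2(CPM + 1) was 0.471 in the DVC (Spearman's rho 0.476, permutation p = 0.124, adjusted p = 0.149 over 6 correlations, n = 12). In the MBH it was −0.0702 (rho 0.105, permutation p = 0.824, adjusted p = 0.824, n = 12). Without the 2 samples farthest from the median input, r was 0.495 in the DVC and −0.112 in the MBH.

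**Figure D2:**
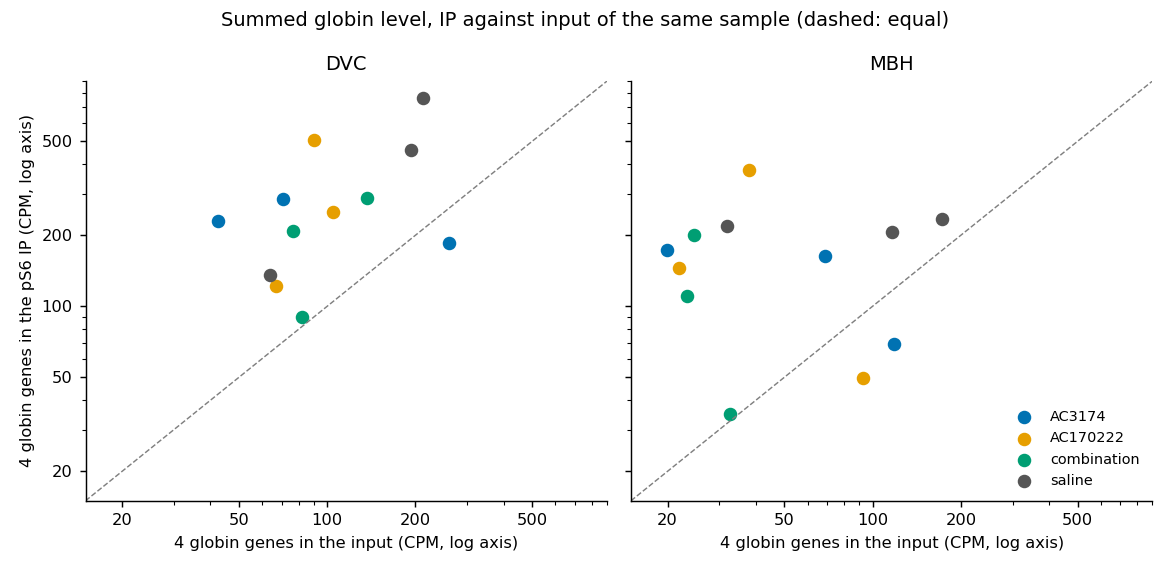
Summed CPM of the 4 globin genes in the pS6 IP (vertical) against the input (horizontal) of the same sample, on log axes, for the 12 DVC samples (left) and the 12 MBH samples (right), coloured by treatment. The dashed line marks equal levels; 11 DVC samples and 10 MBH samples lie above it across the range of input levels.

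Between regions, Hbb-bs was higher in DVC input than in MBH input, and the other globin genes had estimates of like size that did not pass the test. Hbb-bs averaged 49.56 ± 32.2 CPM in DVC input and 24.98 ± 18.64 CPM in MBH input (SD, n = 12 each), and the ranges overlapped. Its log2 fold change was 1.1 ± 0.37 (edgeR adjusted p = 0.0396). The remaining estimates did not pass: 1.13 ± 0.41 for Hba-a1 (edgeR adjusted p = 0.0547), 0.98 ± 0.40 for Hbb-bt (edgeR adjusted p = 0.0905) and 0.80 ± 0.36 for Hba-a2 (edgeR adjusted p = 0.129). Thus 1 of 5 genes was called higher in DVC, where 11.7% of the 18576 genes tested were called higher and 10.2% lower. The call for Hbb-bs was lost when saline replicate 3, AC3174 replicate 1, AC170222 replicate 2 or 3, or any of the 3 combination replicates was left out, with the log2 fold change then between 0.879 and 1.15 and the adjusted p between 0.0656 and 0.112. In the IP libraries 0 of the 5 genes were called between regions by edgeR, where 3.11% of 17230 genes were called higher in DVC and 2.79% lower. There Hbb-bs averaged 141.3 ± 101.6 CPM in DVC and 65.29 ± 39.31 CPM in MBH (log2 1.09 ± 0.40, edgeR adjusted p = 0.126). Without the libraries under 12000 genes the log2 fold changes were 1.68 for Hbb-bs (edgeR adjusted p = 0.084), 1.46 for Hba-a1 (0.674 with all libraries) and 1.04 for Hba-a2 (0.214 with all libraries), and 0 of the 5 were called. With all libraries Hbb-bs alone had an unadjusted p under 0.05 in that comparison, as did 18.0% of all genes tested, and DESeq2 called 0 of the 5.

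Alpha and beta globin RNA moved together across samples. The summed CPM of Hba-a1 and Hba-a2 correlated with that of Hbb-bs and Hbb-bt with Pearson's r of 0.845 in DVC IP (rho 0.853, permutation p = 0.00049, adjusted p = 0.000735, n = 12) and 0.912 in DVC input (rho 0.832, permutation p = 6e-05, adjusted p = 0.00018, n = 12). It was 0.852 in MBH IP (rho 0.776, permutation p = 0.00044, adjusted p = 0.000735, n = 12) and 0.982 in MBH input (rho 0.944, permutation p = 2e-05, adjusted p = 0.00012, n = 12). Without the 2 samples farthest from the median, r was 0.852, 0.845, 0.662 and 0.972 in the same order. Pairs of adjacent columns in the library codes, joined here, hold at most 4 of each 12 libraries, too few for a correlation within a pair.
The ratio of alpha to beta CPM averaged 0.755 ± 0.254 for IP and 1.0 ± 0.211 for input in the DVC, and 1.2 ± 0.766 for IP and 0.984 ± 0.177 for input in the MBH (SD, n = 12 each). The highest ratio was 3.6 in AC3174 replicate 3 of MBH IP, the library in which Hbb-bt was at 0. This library had the smallest total count and the fewest genes with a count (6285) of all libraries. It raised the MBH IP mean, and the median ratio there was 0.957. The lowest was 0.379 in saline replicate 1 of DVC IP.

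**Figure D3:**
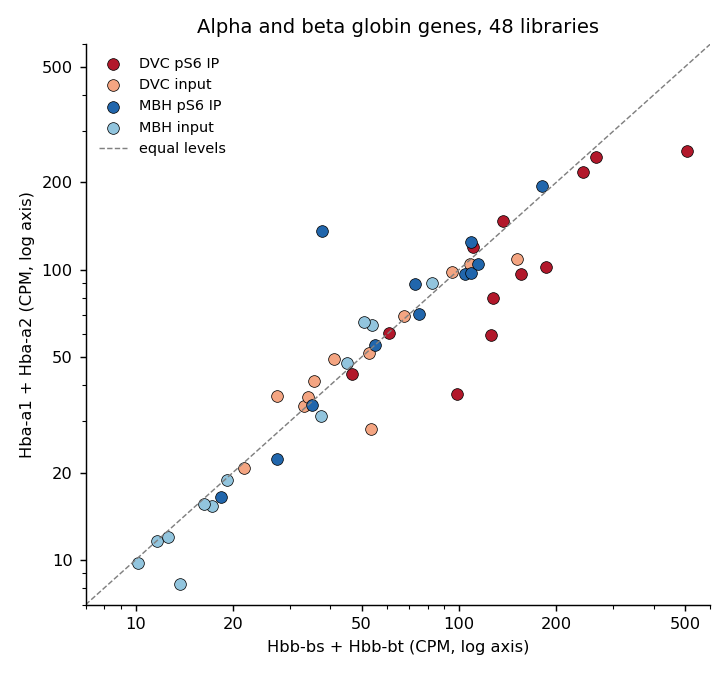
Summed CPM of the alpha genes Hba-a1 and Hba-a2 (vertical) against that of the beta genes Hbb-bs and Hbb-bt (horizontal) in each of the 48 libraries, on log axes, coloured by region and kind of RNA. Points follow the dashed line of equal levels, with 1 MBH IP library well above it at a ratio of 3.6 and several DVC IP libraries below it, down to 0.379.

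The split between the alpha genes varied more in DVC IP than in MBH IP. In input the wider DVC range rested on AC3174 replicate 1 alone. The difference in spread between regions was not tested. Among DVC IP libraries Hba-a2 took as little as 21.5% of the alpha counts in combination replicate 3 (1691 of 7875, 95% Wilson interval 20.6 to 22.4%) and 28.2% in saline replicate 3 (12997 of 46020, 27.8 to 28.7%). It took as much as 76.7% in AC170222 replicate 1 (8529 of 11116, 75.9 to 77.5%). AC3174 replicate 1 was low in both of its DVC libraries, with 23.5% in IP (2094 of 8915, 22.6 to 24.4%) and 24.5% in input (2574 of 10515, 23.7 to 25.3%). The other 11 DVC input libraries lay between 50.6% and 59.4%. In the MBH the share was 50.5% to 61.9% in IP and 46.5% to 64.6% in input. The intervals cover counting error only, and reads are not separate molecules. For the first 3 of these DVC IP libraries the input of the same sample lay at 50.6%, 55.5% and 59.1%. The share of Hbb-bt in the beta counts was 16.7 ± 4.82% for IP and 17.7 ± 4.24% for input in the DVC, and 16.5 ± 5.8% for IP and 19.0 ± 3.41% for input in the MBH (SD, n = 12 each).

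**Figure D4:**
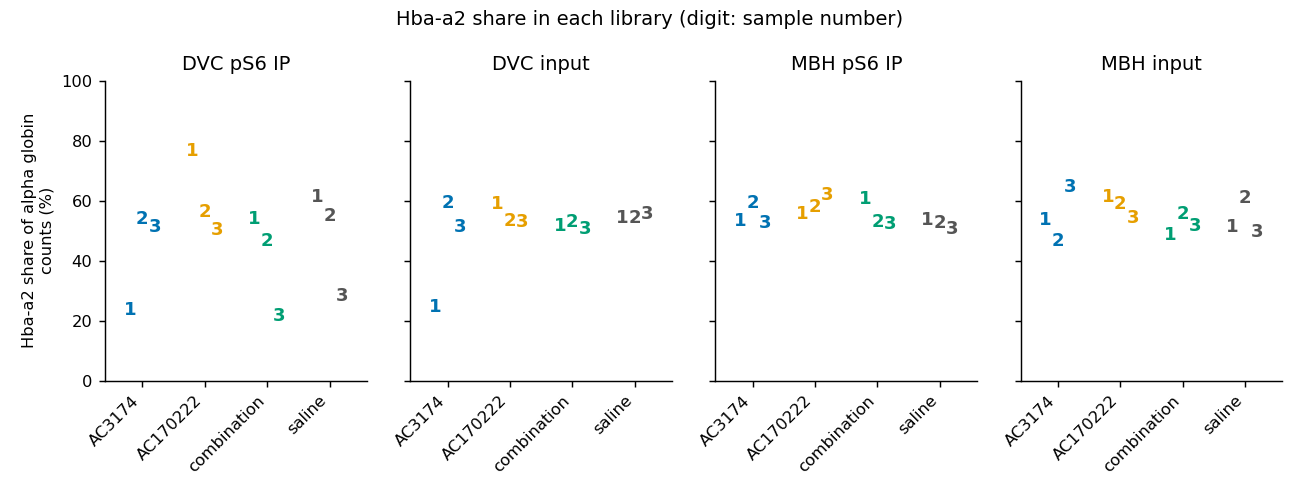
Share of Hba-a2 in the alpha globin counts of each library (percent, linear axis), by region, kind of RNA and treatment; each digit is a library, named by its sample number. MBH libraries lie between 46.5% and 64.6%, while 3 DVC IP libraries and 1 DVC input library lie under 30% and 1 DVC IP library is at 76.7%.

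Alas2 behaved unlike the globin genes. It had 0 counts in 12 of the 48 libraries and between 33 and 4958 counts in the other 36. Under random counting alone, a count of 0 allows a mean of up to 3 counts at 95% confidence. That is 0.0167 to 0.101 CPM depending on the library. The spread of Alas2 between libraries was wider than random counting gives, so a 0 may hide a higher level. In DVC IP it was at 0 in 4 of 12 libraries and reached 40.27 CPM in combination replicate 2, against 2 of 12 at 0 and at most 15.74 CPM in DVC input. In MBH IP it was at 0 in 4 of 12 and reached 22.03 CPM, against 2 of 12 at 0 and at most 6.557 CPM in MBH input.
Saline replicate 3 of DVC IP shows the contrast within a library, with 75992 counts of Hbb-bs, the highest of all, and 0 of Alas2. The log2 IP-to-input estimates for Alas2 were 1.15 ± 1.37 in the DVC (edgeR adjusted p = 0.686) and 1.4 ± 1.36 in the MBH (edgeR adjusted p = 0.97). Without AC3174 replicate 1 the DVC estimate was −1.74, and the 2 remaining AC3174 IP libraries were at 0.

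Likeness to Hbb-bs was ranked by Spearman's rho of deviations of log2(CPM + 1) from the group mean over 48 libraries, among the 14496 genes that averaged 1 CPM or more. Hba-a1 ranked first (rho 0.874), Hbb-bt next (rho 0.857) and Hba-a2 at 5 (rho 0.786), whereas Alas2 ranked at 2369 (rho 0.17). The 5 most similar genes outside the set were Cox4i1 (rho 0.816), Uqcrq (rho 0.798), Mt3 (rho 0.779), Rpl19 (rho 0.774) and Cox6c (rho 0.771). Cox4i1 and Cox6c encode subunits of cytochrome c oxidase, Uqcrq a subunit of respiratory complex III, Mt3 a brain metallothionein and Rpl19 a ribosomal protein. These points share library, depth and number of detected genes, and rho is given as a description.
Within the 4 sets the order changed. Cox4i1 had a rho of 0.811 with Hbb-bs in DVC IP, above Hba-a1 with 0.769 and Hba-a2 with 0.657, and 0.783 in MBH input, below both. Mt3 had a rho of 0.406 with Hbb-bs in DVC IP and 0.923 in MBH input.

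Genes of the same pathway differed in direction. Of 8 other globins, the cluster genes Hba-x, Hbb-bh1 and Hbb-bh2 were at 0 in every library. Cygb, the cytoglobin of fibroblasts and some neurons, averaged 155.4 ± 39.45 CPM in DVC IP and 199.8 ± 27.48 CPM in DVC input (SD, n = 12 each) and was lower in the IP (log2 −0.46 ± 0.14, edgeR adjusted p = 0.0268). Ngb, the neuronal globin, averaged 57.41 ± 18.07 CPM in DVC input and 451.5 ± 144.5 CPM in MBH input, lower in the DVC (log2 −2.97 ± 0.16, edgeR adjusted p = 1.04e-10). Cygb was higher in DVC input than in MBH input (log2 0.86 ± 0.12, edgeR adjusted p = 3.23e-05). The theta globin genes Hbq1a and Hbq1b had estimates of opposite sign between regions. Hbq1a had −3.48 ± 1.46 in input (edgeR adjusted p = 0.103) and −6.61 ± 1.96 in IP (edgeR adjusted p = 0.059), and passed in neither. Its mean was 0.2576 ± 0.757 CPM in DVC IP and 4.981 ± 13.12 CPM in MBH IP. Hbq1b was higher in DVC than in MBH, as was Hbb-bs in input. It averaged 0.5429 ± 0.3374 CPM in DVC input and 0.08575 ± 0.19 CPM in MBH input (log2 3.46 ± 1.13, edgeR adjusted p = 0.034), and 1.302 ± 1.218 CPM in DVC IP and 0.1646 ± 0.5701 CPM in MBH IP, where 11 of 12 libraries were at 0 (log2 7.53 ± 1.66, edgeR adjusted p = 0.0169).
Of the 8 haem synthesis enzymes that cells outside the erythroid line also use, 1 was called higher and 1 lower in DVC IP than in DVC input. Over all genes tested, 6.8% were called higher and 13.6% lower. The list median was 0.30 on the log2 scale, against −0.37 over all genes. Uros, which closes the tetrapyrrole ring, averaged 91.96 ± 46.22 CPM in IP and 49.21 ± 10.15 CPM in input (log2 0.70 ± 0.22, edgeR adjusted p = 0.0285). Cpox, a later mitochondrial enzyme, averaged 16.58 ± 21.7 CPM in IP and 68.72 ± 16.88 CPM in input (log2 −2.28 ± 0.68, edgeR adjusted p = 0.0232). In MBH 0 of the 8 were called between IP and input.
Of 11 genes of haem and haemoglobin clearance, 2 were called higher in DVC IP than in DVC input and 0 lower. The shares over all genes tested were 6.8% and 13.6%. The list median was −0.99 on the log2 scale, against −0.37 over all genes. Of the 10 tested, Hpx was at 0 in all DVC IP libraries, and 5 others had log2 estimates below 0 that did not pass the test. Among those, Lrp1, the receptor that takes up haem bound to haemopexin, had −2.13 ± 0.83 (edgeR adjusted p = 0.0785). Blvra, a biliverdin reductase, averaged 119.1 ± 59.25 CPM in IP and 52.57 ± 5.7 CPM in input (log2 1.07 ± 0.24, edgeR adjusted p = 0.00501). Blvrb, the second biliverdin reductase, averaged 47.96 ± 20.11 CPM in IP and 18.78 ± 3.544 CPM in input (log2 1.25 ± 0.27, edgeR adjusted p = 0.00327).

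Several genes that define red cell precursors were at or near 0, and others of the list were not. Of 20 regulators and red cell proteins, 19 were matched in the table. Slc4a1, the band 3 anion exchanger of the red cell membrane, and Kel, a blood group protein, were at 0 in all 48 libraries. Gata1, the master erythroid transcription factor, was at 0 in 47 libraries and at 0.702 CPM in 1 MBH IP library. Klf1, which drives the adult beta globin gene, was at 0 in all IP libraries and reached 2.08 CPM in DVC input and 2.43 CPM in MBH input. Only 7 of the 20 had enough counts to be tested between IP and input in each region, and edgeR called 0 of them at an adjusted p under 0.05. None of those 7 had an unadjusted p under 0.05 in either region. Some of them, such as Tal1, were at 0 in most libraries, so their tests could not tell.
Slc25a37, the mitochondrial iron importer mitoferrin 1, averaged 8.14 ± 11.11 CPM in DVC IP and 12.91 ± 9.135 CPM in DVC input, with a highest value of 58.45 CPM in MBH IP and 11.79 CPM in MBH input. Epor, the erythropoietin receptor, was at 0 in 7 of 12 DVC IP libraries, where it reached 12.37 CPM, and in 6 of 12 DVC input libraries. Genes of the list with other known uses, Bpgm (2,3-bisphosphoglycerate mutase) and Tfrc (the transferrin receptor), were found in all 24 input libraries. Bpgm averaged 101.5 ± 39.12 CPM in DVC IP and 94.58 ± 14.1 CPM in DVC input (log2 −0.00295 ± 0.183, edgeR adjusted p = 1.0).

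No marker of other cells of the blood and vessels was called higher in the DVC IP. In that comparison 6.8% of all genes tested were called higher and 13.6% lower, to be set beside each count below for the DVC. The 10 leukocyte markers summed to 0.0 to 14.78 CPM in DVC IP and 3.032 to 20.07 CPM in DVC input, and 5 of the 10, S100a9, Ngp, Camp, Ltf and Retnlg, were at 0 in all DVC IP libraries. In DVC 0 of the 6 tested were called in either direction. Ptprc, Cd3e and S100a9 were at 0 in most libraries of both kinds (SE of 2580 or more), so their tests could not tell. Lyz2, S100a8 and Cd79a had estimates below 0, with the lowest adjusted p for Lyz2 (log2 −4.22 ± 1.5, edgeR adjusted p = 0.0562). The list median was −3.33 on the log2 scale, against −0.37 over all genes. The 6 platelet markers summed to 0.0 to 14.28 CPM in DVC IP and 3.139 to 11.99 CPM in DVC input, and 2, Pf4 and Gp1bb, were called lower in IP (edgeR adjusted p = 0.00628 and 0.0402). The 10 endothelial markers summed to 0.0 to 301.7 CPM in DVC IP and 15.08 to 55.44 CPM in DVC input, and 4 were called lower in IP, Cdh5, Cldn5, Pecam1 and Itm2a. Cdh5 was at 0 in all 12 DVC IP libraries. Cldn5 was at 0 in 9 of 12 DVC IP libraries and at 31.5 CPM in another.
Of 6 microglial markers, 4 were called lower in DVC IP, P2ry12, Csf1r, Cx3cr1 and C1qa, with a summed level of 0.0 to 44.96 CPM in IP and 44.15 to 76.91 CPM in input. The 5 neuronal markers summed to 10120 to 21260 CPM in DVC IP and 7589 to 8679 CPM in DVC input, and Snap25 and Stmn2 were called higher (log2 0.87 ± 0.09 and 0.76 ± 0.11, edgeR adjusted p = 1.1e-05 and 0.000103).
In MBH edgeR called 0 genes of these lists between IP and input, and several, such as S100a9 and Pecam1, were at 0 in most libraries of both kinds. There the leukocyte markers summed to 0.0 to 6.229 CPM in IP and 0.0 to 12.25 CPM in input, the platelet markers to 0.0 to 12.03 CPM in IP and 2.185 to 14.27 CPM in input, and the endothelial markers to 0.0 to 80.98 CPM in IP and 15.35 to 60.44 CPM in input. The part of these cells, and of the smaller number of genes detected in IP libraries, in the globin result was not tested.
Between regions some blood markers were called higher in DVC input, as was Hbb-bs, and others were not called. S100a8, of neutrophils, Cd79a, of B cells, and Gp1bb, of platelets, were called higher in DVC input than in MBH input (edgeR adjusted p = 0.0138, 0.0231 and 0.0151), as 2 of the 5 leukocyte and 1 of the 4 platelet markers tested. Over all genes tested, 11.7% were called higher and 10.2% lower. Levels were low, with Cd79a at 0.8187 ± 0.5813 CPM in DVC input and 0.1006 ± 0.1384 CPM in MBH input. Gp1bb had 0.9998 ± 0.8852 and 0.4819 ± 0.7905 CPM. Of the leukocyte and platelet markers tested, Itga2b alone had an estimate below 0 (log2 −0.61 ± 0.41, edgeR adjusted p = 0.341). S100a8 reached 1.31 CPM in DVC input, where 5 of 12 libraries were at 0, and was at 0 in 11 of 12 MBH input libraries. Of the other lists, the haem synthesis genes had 1 of 8 called higher and 3 lower, the red cell list 1 higher and 1 lower of 8 tested, and the clearance list 3 higher and 1 lower of 10 tested. Of the 10 endothelial genes 0 were called, of the 6 microglial genes 1 was higher, and of the 5 neuronal genes 4 were higher. The part of a larger share of blood in the regional difference was not tested.

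No globin gene or Alas2 was called between a drug and saline. Across the 12 comparisons edgeR called 0 genes (0.0% of those tested), with 127 to 1427 at an unadjusted p under 0.05, and DESeq2 called 144 to 1154 genes, of which 0 were members of the set. The 3 drug groups of each region and kind of RNA share the same 3 saline libraries, so the comparisons are not independent. With 3 libraries a group, an exact permutation test could not go below p = 0.1.

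**Figure D5:**
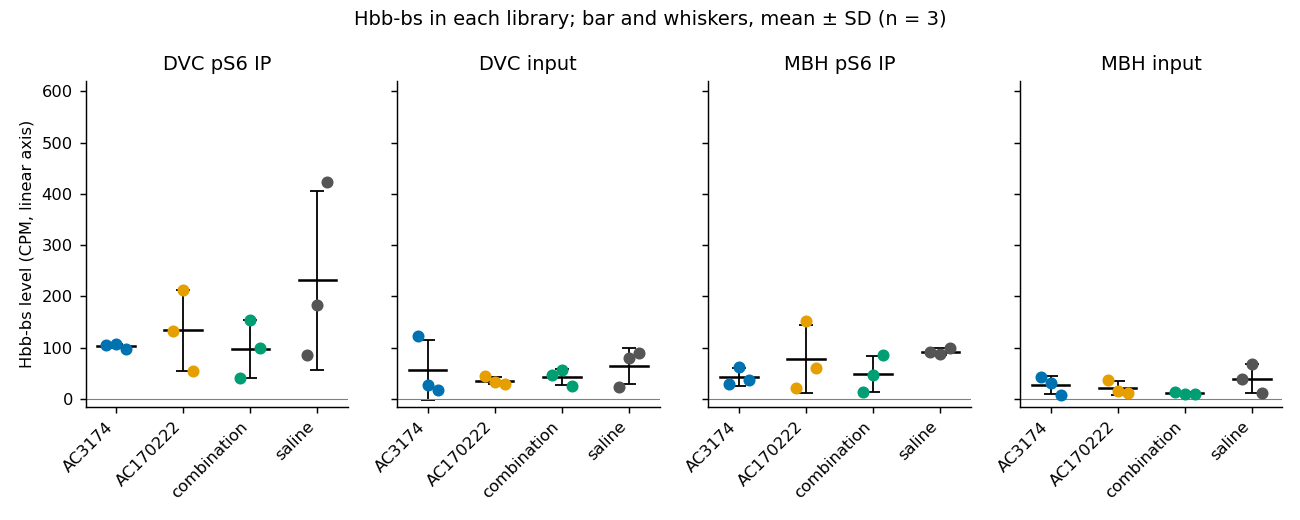
Hbb-bs in each of the 48 libraries (CPM, linear axis), by region, kind of RNA and treatment, with the drugs left of saline. Points are libraries, bars the mean and whiskers the SD of 3; the saline libraries of DVC IP run from 85.64 to 423.4 CPM and overlap each drug group.

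The largest globin estimates were in MBH input after the combination. Hbb-bs had 14.11, 9.958 and 10.19 CPM in the combination libraries, against 38.96, 67.86 and 11.86 CPM in the saline libraries. Hba-a2 had 7.433, 6.468 and 6.162 CPM, against 33.78, 55.05 and 7.734 CPM with saline. The low saline library is replicate 3, close to the combination libraries for both genes.
The log2 estimates were −1.76 ± 0.77 for Hbb-bs (edgeR adjusted p = 0.572), −2.24 ± 0.91 for Hba-a2 (edgeR adjusted p = 0.566), −1.96 ± 0.91 for Hba-a1 (edgeR adjusted p = 0.584) and −2.07 ± 0.97 for Hbb-bt (edgeR adjusted p = 0.586). The groups did not overlap for 2 of the 5 genes, Hba-a2 and Hbb-bt, where 7.6% of the 16622 genes tested were lower without overlap.
Each library code in the labels holds a column number, and adjacent columns were joined in pairs here, a grouping that no label states. On it, one set holds saline replicates 1 and 2, another saline replicate 3 with combination replicate 1, and the last combination replicates 2 and 3. In the set that holds both groups, the 4 globin genes summed to 32.53 CPM in the combination library and 31.86 CPM in the saline library. With the set as a covariate the log2 estimates were 0.17 for Hbb-bs, 0.45 for Hba-a2, 0.33 for Hba-a1 and −0.30 for Hbb-bt, so the sign turned for 3 of the 4.

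In the single-drug groups of MBH input the log2 estimates of the 4 globin genes ran from −0.78 to −0.52 after AC3174 and from −1.33 to −0.88 after AC170222. Hbb-bs ran from 8.225 to 42.42 CPM after AC3174 and from 11.25 to 37.56 CPM after AC170222, both overlapping saline.
In MBH IP Hbb-bs had 28.82, 61.68 and 37.62 CPM after AC3174, 21.92, 151.0 and 60.84 CPM after AC170222, and 14.05, 45.84 and 84.96 CPM after the combination, against 90.82, 87.05 and 98.86 CPM after saline. The AC3174 and combination groups lay below saline without overlap, and the AC170222 group overlapped it. Hbb-bs and Hbb-bt did not overlap with saline after AC3174, where 5.15% of 14766 genes were lower without overlap, and Hba-a2 and Hbb-bs did not after the combination, where 3.09% were. The log2 estimates of Hbb-bs were −1.15 ± 0.96 after AC3174, −0.28 ± 0.94 after AC170222 and −0.92 ± 0.95 after the combination, each with an edgeR adjusted p of 1.0. Of these 12 libraries 5 have fewer than 12000 genes with a count: saline replicate 3 and replicates 2 and 3 of each single drug. Without them the estimates of Hbb-bs were −1.59 after AC3174 and −2.03 after AC170222, each with 1 remaining drug library that was assumed to vary like the other groups, and −0.893 after the combination (edgeR adjusted p = 1.0 for each). With the pairs of adjacent code columns as a covariate they were −1.89 after AC3174 and −1.89 after the combination (edgeR adjusted p = 0.756 and 0.637).

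In DVC IP Hbb-bs averaged 102.9 ± 4.701 CPM after AC3174, 133.5 ± 79.0 CPM after AC170222, 97.96 ± 56.39 CPM after the combination and 230.9 ± 173.8 CPM after saline (SD, n = 3 each). Saline replicate 3 held 423.4 CPM, the highest of the 48 libraries, and saline replicate 1 held 85.64 CPM, within the range of the drug groups. The log2 estimates of Hbb-bs were −1.18 ± 0.69, −0.81 ± 0.68 and −1.24 ± 0.69 after AC3174, AC170222 and the combination (edgeR adjusted p = 0.746, 1.0 and 0.858).
In DVC input Hbb-bs averaged 55.85 ± 58.28 CPM after AC3174, 35.73 ± 7.719 CPM after AC170222, 42.52 ± 15.59 CPM after the combination and 64.13 ± 35.57 CPM after saline. AC3174 replicate 1 held 122.8 CPM, the highest DVC input value, and AC3174 replicate 3 held 16.78 CPM, the lowest, so this group spanned the whole range of the set. The estimate after AC3174 was −0.19 ± 0.67 on the log2 scale (edgeR adjusted p = 1.0). Alas2 was the only member whose AC3174 and saline libraries did not overlap there, at 2.086, 0.0 and 2.44 CPM after AC3174, against 6.872, 3.186 and 15.74 CPM after saline, where 5.06% of 17477 genes were lower without overlap. Its log2 estimate was −2.47 ± 1.9 (edgeR adjusted p = 1.0).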

How the data were processed

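The authors deposited raw counts per Ensembl gene for 48 libraries. Per the labels' protocols, RNA was amplified with SMART-Seq v4 and made into libraries with Nextera XT, without strand. The tools named in the submitters' processing notes were TopHat2 2.0.11 and HTSeq 0.6.1p1 on GRCm38. Of the 38293 identifiers, 36345 had a symbol. Total counts ran from 21782798 to 191252522 per library, and 3 counts correspond to 0.0167 to 0.101 CPM.

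Groups came from the labels. CPM used TMM factors over all 48 libraries. Tests were edgeR 4.0.16 quasi-likelihood tests (R 4.3.3, TMM, filterByExpr) with Benjamini-Hochberg adjustment over all genes tested and a threshold of 0.05. The 17 comparisons were IP with input, DVC with MBH, their interaction, and each drug with saline. Correlations used log2(CPM + 1) with 100000 permutations, two-sided (scipy 1.17.1). The edgeR script was tested on simulated counts. Alternatives were DESeq2 1.42.0, its size factors in edgeR, no filter, a replicate block, the code column set, each replicate left out, another pseudocount, and, chosen after seeing the data, leaving out libraries under 12000 genes.

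Per the labels, an IP and its input come from 1 lysate, so libraries of the same number were taken as pairs. The main tests did not use this pairing, and the replicate block was run as an alternative. Deviations from group means correlated between same-number libraries at −0.0576 to 0.0397 in the DVC and −0.0707 to 0.0798 in the MBH. Of the 12 pairs, 6 in the DVC and 5 in the MBH correlated best with their own number.

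Members and gene lists were chosen with earlier results of these data known. Named genes are the 5 members, up to 4 genes per list with the smallest p among those called, and the 5 genes most like Hbb-bs. Other genes at or near 0, and those named for their levels, were chosen after their values were seen. The values of 1 gene of the red cell list are not reported here.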

Additional observations from a re-analysis of the deposited data

How the results depend on the processing

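Hbb-bs stayed higher in DVC IP than in input under each alternative run, and the 6 correlations kept their call with a pseudocount of 5 CPM. The number of the 5 genes called higher in DVC IP was 2, and 1 with DESeq2 size factors, with no filter or with the replicate block, and 1 to 4 with 1 sample left out. Hbb-bt lost its call in those 3 settings and without saline replicate 2 or 3, AC3174 replicate 2, AC170222 replicate 1 or 2, or combination replicate 2 or 3. In the MBH the number was 0, and 3 with DESeq2. Between regions in input it was 1, against 2 with DESeq2 size factors, 3 with DESeq2, 2 with the replicate block and 0 to 2 with 1 sample left out. Whether same-numbered samples of the regions, or of the treatments, share an animal or day is not stated. Same-number libraries of the regions correlated at −0.0041 to 0.0858 in input and −0.0427 to 0.241 in IP, and 9 and 8 of 12 correlated best with their own number.

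Over all genes, IP and input differed in 3776 genes in the DVC, against 6091 with DESeq2 and 1401 with the block. In the MBH it was 79, against 44 with no filter, 1846 with DESeq2, 3 with the block, 363 without libraries under 12000 genes and 4 to 587 with 1 sample left out. The interaction gave 852, against 3270 with DESeq2, 200 with the block and 1665 without those libraries. Regions differed in 1015 genes in IP, against 3230 with DESeq2 and 372 with the block. In input the regions differed in about 4070 genes, against about 3000 to 5940 in the other settings and 3045 to 4408 with 1 sample left out. The drug comparisons gave 0 with edgeR and 144 to 1154 with DESeq2.

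Signs turned in the following cases, and the cause was not tested. For the interaction, Hbb-bs was −0.332 with DESeq2 size factors and with DESeq2 and −0.0451 with no filter, Hbb-bt was −0.0499 and −0.051 with the same size factors and DESeq2, and without libraries under 12000 genes Hba-a1 was 0.351 and Hba-a2 0.26. With 1 sample left out, Alas2 ran from −1.74 (without AC3174 replicate 1) to 1.54 for IP over input in the DVC, and from −2.56 (without the same sample) to 0.964 for DVC over MBH in IP. With the code column set as a covariate, Hbb-bs in DVC input was 0.226 after AC3174 and 0.375 after the combination, and in MBH input 1.33 after AC3174. In MBH input after the combination, that covariate gave 0.167 for Hbb-bs, 0.333 for Hba-a1, 0.45 for Hba-a2 and 0.752 for Alas2. With 1 library left out, Hbb-bs after AC3174 in DVC input ran from −1.48 to 0.221, and was above 0 without saline replicate 3 (0.116) or AC3174 replicate 2 (0.118) or 3. In MBH input after AC3174 it ran from −1.01 to 0.134, the last without saline replicate 2. After AC170222 it ran from −1.33 to 0.0139 in DVC IP, the last without saline replicate 3, and from −1.16 to 0.157 in MBH IP, the last without AC170222 replicate 1. Alas2 after the combination in MBH input ran from −1.43 to 0.0114, the last without saline replicate 1. Leaving out samples was not run for the interaction. Near-identical gene pairs and groups of 3 limit the precision of the drug comparisons.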
